A study of Arabidopsis thaliana with 12 samples.

Results

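The genes described here encode 6 Arabidopsis thaliana enzymes of camalexin and indole carbonyl nitrile synthesis, of 33323 genes in the deposited table. They were taken by gene identifier: CYP71A13 (AT2G30770), CYP71A12 (AT2G30750), GGP1 (AT4G30530), PAD3 (AT3G26830), CYP71B6 (AT2G24180) and CYP82C2 (AT4G31970). Of these, 5 held enough counts to be tested, and CYP82C2 did not. RNA was sequenced from 12 pools of rosettes, 3 pools for each of 4 genotypes: jazDcdk8-1, jazD, cdk8-1 and Col-0. Col-0 is the wild-type accession. The cdk8-1 mutant carries an allele of CDK8, a kinase of the Mediator complex that links transcription factors to RNA polymerase II. The jazD mutant lacks a large set of JAZ proteins, which repress transcription in the jasmonate hormone pathway, and jazDcdk8-1 combines both. The labels name no pathogen, elicitor or hormone treatment. Plants were raised on peat for 18 days and then in soil for 7 days, with 16 h of light at 20 °C and with mutants and wild type in the same tray, and about 20 rosettes without roots were pooled per library. The mutations are present in every cell of the plant, so each value averages over all cells and leaves of a rosette, and fewer expressing cells cannot be told apart from less RNA per cell.

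Camalexin and the indole carbonyl nitriles are sulphur-containing and cyanogenic defence compounds that Arabidopsis makes from tryptophan, mostly after attack by bacteria or fungi. Tryptophan is converted to indole-3-acetaldoxime by CYP79B2 and CYP79B3. This aldoxime feeds indole glucosinolates through CYP83B1, and camalexin through the cytochromes P450 CYP71A12 and CYP71A13. In the camalexin branch the product of CYP71A13 is joined to glutathione, GGP1 removes the glutamyl residue of the conjugate, and PAD3 (CYP71B15) forms camalexin. In the carbonyl nitrile branch CYP71A12 acts with the oxidase FOX1, and CYP82C2 hydroxylates the product to 4-hydroxyindole-3-carbonyl nitrile. CYP71B6 converts indole-3-acetonitrile to indole-3-carbaldehyde and the corresponding carboxylic acid. The transcription factor WRKY33, which binds W-box elements, is a known activator of several of these genes.

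CYP71A12 and CYP71A13 are near copies that lie beside each other, so how far their reads can be told apart bears on every value given for them. In the RefSeq TAIR10.1 annotation CYP71A12 occupies chr2:13099486-13101371 and CYP71A13 chr2:13109909-13111988, both on the minus strand, 8537 bases apart with 1 gene (AT2G30760) between them. Each has 4 coding exons and a coding sequence of 1494 bases, of which 1350 are identical (90.36%). The longest identical run was 59 bases, and of 1138 windows of 90 bases none was identical, with a median of 8 mismatches. PAD3 lies at chr3:9887917-9889791, CYP71B6 at chr2:10281718-10283735, GGP1 at chr4:14920376-14922519 and CYP82C2 at chr4:15462350-15464563, all on the plus strand. The other pairs among the 5 cytochromes P450 shared between 52.16% and 56.34% of their aligned coding bases. The 90-base stretch with the most differences, 18, starts at coding base 775 and is shown because it is where reads separate the copies best. It runs from chr2:13100336-13100425 in CYP71A12 and from chr2:13110926-13111015 in CYP71A13, minus strand, written 5′ to 3′ with the differing bases in capitals.
CYP71A12: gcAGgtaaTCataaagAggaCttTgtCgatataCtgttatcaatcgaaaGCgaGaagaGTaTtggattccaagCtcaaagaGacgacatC
CYP71A13: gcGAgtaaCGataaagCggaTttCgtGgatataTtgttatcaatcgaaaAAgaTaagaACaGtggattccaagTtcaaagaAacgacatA
Reads that a counting program splits between copies leave fractional expected counts. All 72 values of the 6 genes were whole to within 1e-06 in the deposited table, whereas 3.422561% of all its values were not. A read placed wholly on the wrong copy, or left out, also leaves whole counts. Whole values therefore do not show that each read was given to the right copy.

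The upstream regions are shown for PAD3, both copies and CYP82C2, the genes whose levels differed most or were lowest. They were read from TAIR10.1 and are written 5′ to 3′ on the strand of the gene, with matches to the W-box (TTGACC or TTGACT on either strand) in capitals, and no match overlapped another. The windows are chr3:9887667-9887916 on the plus strand for PAD3, chr2:13101472-13101621 on the minus strand for CYP71A12, chr2:13112089-13112238 on the minus strand for CYP71A13 and chr4:15462100-15462349 on the plus strand for CYP82C2. The annotated start of both copies is the first coding base, and the 100 bases next to it are not shown.
PAD3: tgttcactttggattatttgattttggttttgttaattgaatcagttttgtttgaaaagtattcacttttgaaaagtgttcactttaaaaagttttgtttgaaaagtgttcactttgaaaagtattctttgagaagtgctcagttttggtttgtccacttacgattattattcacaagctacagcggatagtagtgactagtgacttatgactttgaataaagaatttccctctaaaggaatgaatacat
CYP71A12: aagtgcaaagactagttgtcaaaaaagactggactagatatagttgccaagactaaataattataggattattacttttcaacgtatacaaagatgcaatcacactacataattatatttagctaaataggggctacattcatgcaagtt
CYP71A13: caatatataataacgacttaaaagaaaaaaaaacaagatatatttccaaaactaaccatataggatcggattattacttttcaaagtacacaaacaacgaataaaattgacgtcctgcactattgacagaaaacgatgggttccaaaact
CYP82C2: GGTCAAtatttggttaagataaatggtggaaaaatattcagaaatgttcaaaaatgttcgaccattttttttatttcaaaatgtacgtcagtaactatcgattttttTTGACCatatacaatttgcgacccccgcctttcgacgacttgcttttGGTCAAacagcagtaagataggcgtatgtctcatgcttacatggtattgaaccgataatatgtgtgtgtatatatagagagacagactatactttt
Within 250 bases before the annotated start, CYP82C2 had 3 W-box matches, CYP71B6 and GGP1 had 1 each, and PAD3, CYP71A12 and CYP71A13 had none. A W-box match is common in such windows, being present in 28.4% of 27443 protein-coding genes. Within 1000 bases PAD3 had 3 matches, CYP71B6 had 2 and both CYP71A copies had none, against 67.3% of protein-coding genes with at least 1. No upstream window of the 6 genes, at either length, held the G-box CACGTG, present in 6.49% of genes at 250 bases and 14.8% at 1000 bases. The GCC-box GCCGCC was also absent from all of them, and it was present in 1.87% of genes at 250 bases and 8.44% at 1000 bases. Upstream of the 2 copies, 71.07% of aligned bases were identical over 250 bases and 64.11% over 1000 bases, below their coding identity. A match is a description of these letters and does not show binding.

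The libraries held between 17583467 and 21030374 counts. CDK8 had 49 to 71 counts in jazDcdk8-1 and 46 to 55 in cdk8-1, against 339 to 409 in jazD and 335 to 406 in Col-0, and JAZ1, JAZ2 and JAZ6 were lower in both jazD genotypes than in Col-0. Log2 CPM of libraries of the same genotype correlated across genes at 0.988 to 0.991, and those of different genotypes at 0.923 to 0.979. The 4 rosette leaf markers (RBCS1A, LHCB1.3, RCA and CA1) together made up 48300 to 58500 CPM (TMM-scaled counts relative to library size) in every library, while 4 root markers (EXPA7, COBL9, PRP3 and IRT1) together had at most 3 counts. The 4 flower markers (AP1, AP3, PI and SEP3) had 3 to 27 counts in sum. The leaf marker sum hides changes of single genes. In jazD against Col-0 RCA and CA1 were lower, at -0.71 and -0.79 log2 (edgeR adjusted p = 9.2e-11 and 3.59e-11). RBCS1A and LHCB1.3 were not called there (edgeR adjusted p = 0.159 and 0.515). In jazDcdk8-1 against Col-0 RCA was at -0.36 and CA1 at -0.51 log2 (edgeR adjusted p = 4.24e-06 and 7.39e-08). Replicate 3 of jazDcdk8-1 and replicate 2 of jazD stood apart for several of the genes below. In jazDcdk8-1 replicate 3 the CPM was 2.82 times the mean of the other two jazDcdk8-1 libraries for PAD3 and 2.39 times for CYP71A13, but 1.19 times for CYP71A12. Of 17572 genes, 53 (0.302%) were at least 2-fold higher in it, and among the immune markers PR1 was at 5.25 times and FRK1 at 2.47 times. In jazD replicate 2 the CPM was 2.36 times the mean of the other two jazD libraries for PAD3, 2.73 times for CYP71A13 and 1.82 times for CYP71A12. Of 17569 genes, 58 (0.330%) were at least 2-fold higher in it, and PR1 was at 2.27 times and FRK1 at 2.38 times. The median gene was at 1.00 times in both libraries. Other libraries differed from their replicates too. In cdk8-1 replicate 3, 48 genes (0.273%) were at least 2-fold higher, with PAD3 at 1.60 times, CYP71A13 at 1.73 times and PR2 at 2.10 times. In Col-0 replicate 1 the share was 0.182%, with PR1 at 2.25 times, PR2 at 2.13 times and PAD3 at 0.904 times. In the remaining libraries the share was 0.0854% to 0.154%. The part of the immune markers in the results was not tested. Values without jazDcdk8-1 replicate 3 or jazD replicate 2 are given beside the comparisons below.

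The levels of the 6 genes differed widely, and the 2 that changed least were the most abundant. On the TPM scale, which accounts for gene length, GGP1 averaged 206 in jazDcdk8-1, 214 in jazD, 160 in cdk8-1 and 138 in Col-0. CYP71B6 averaged 26.1, 26.9, 22.8 and 19.5 TPM in the same order of genotypes. PAD3 averaged 1.2 TPM in jazDcdk8-1, 15.4 in jazD, 0.457 in cdk8-1 and 2.83 in Col-0. CYP71A12 and CYP71A13 lay between 0.777 and 7.65 TPM as genotype means. CYP82C2, the hydroxylase of the carbonyl nitrile branch, had 0, 1 and 0 counts in jazDcdk8-1, 1, 1 and 0 in jazD, 0, 1 and 0 in cdk8-1, and 2, 3 and 0 in Col-0. Summed over 3 libraries, these are 1, 2, 1 and 5 counts, too few to test, and a fold change is not given.

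**Figure D1:**
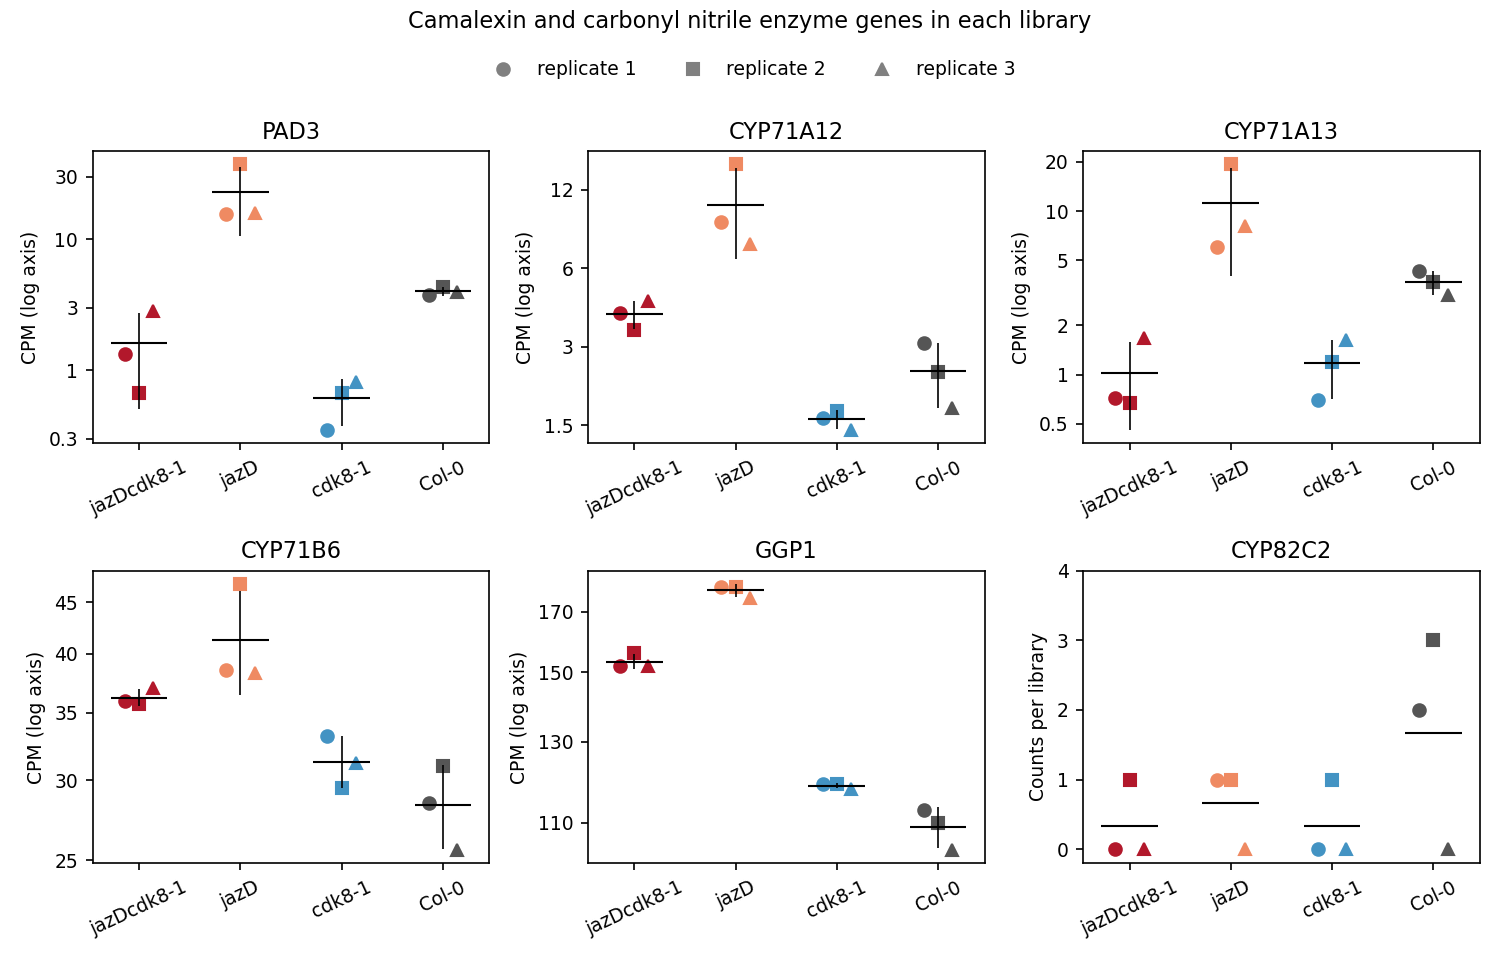
CPM of 5 genes (log axes) and counts of CYP82C2 (linear axis) in each library, by genotype. Symbols mark the replicate, horizontal lines the mean and vertical lines the SD over 3 libraries (no SD for CYP82C2); PAD3 and CYP71A13 were highest in jazD replicate 2, and GGP1 separated all genotypes.

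CYP71A13, which makes indole-3-acetonitrile for camalexin, had 0.723, 0.670 and 1.67 CPM in the 3 jazDcdk8-1 libraries and 6.04, 19.3 and 8.05 CPM in the jazD libraries. It had 0.698, 1.19 and 1.63 CPM in cdk8-1 libraries and 4.31, 3.71 and 3.05 CPM in Col-0 libraries. The jazD libraries were all higher than the Col-0 libraries, the cdk8-1 and jazDcdk8-1 libraries overlapped, and both lay below Col-0. CYP71A12, the first enzyme of the carbonyl nitrile branch, had 4.06, 3.49 and 4.49 CPM in jazDcdk8-1 and 9.04, 15 and 7.46 CPM in jazD. It had 1.60, 1.71 and 1.44 CPM in cdk8-1 and 3.11, 2.41 and 1.75 CPM in Col-0. No 2 genotypes overlapped for CYP71A12, which was ordered jazD, jazDcdk8-1, Col-0 and cdk8-1. In CYP71A12, jazDcdk8-1 lay above Col-0, whereas in CYP71A13 it lay below.

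PAD3, the last enzyme of camalexin synthesis, had 1.33, 0.670 and 2.83 CPM in the jazDcdk8-1 libraries and 15.6, 37.2 and 15.9 CPM in the jazD libraries. It had 0.349, 0.672 and 0.817 CPM in cdk8-1 and 3.74, 4.32 and 3.95 CPM in Col-0. The order of PAD3 was jazD, Col-0, jazDcdk8-1 and cdk8-1, and jazDcdk8-1 and cdk8-1 overlapped. GGP1, the glutamyl peptidase, had 152, 156 and 152 CPM in jazDcdk8-1, 179, 179 and 175 CPM in jazD, 119, 119 and 118 CPM in cdk8-1 and 113, 110 and 104 CPM in Col-0. No genotypes overlapped for GGP1, and its spread was small, at 0.427 to 4.45 CPM (SD). CYP71B6 had 35.9, 35.7 and 37.0 CPM in jazDcdk8-1, 38.6, 46.9 and 38.3 CPM in jazD, 33.2, 29.5 and 31.2 CPM in cdk8-1 and 28.5, 31.0 and 25.6 CPM in Col-0. Its order was jazD, jazDcdk8-1, cdk8-1 and Col-0, and only cdk8-1 and Col-0 overlapped. How many of all genes separated the genotypes without overlap was not counted. Such separation is therefore not shown to be particular to any gene described here.

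All 5 tested genes were higher in jazD, which has CDK8 but lacks a large set of JAZ repressors, than in Col-0. In jazD against Col-0 all 5 were higher at an adjusted p below 0.05, in a comparison in which 42.8% of 19059 tested genes were called, 21.8% higher and 20.9% lower. PAD3 was higher in jazD by 2.53 ± 0.30 log2 (approximate SE, as for all fold changes here; edgeR adjusted p = 4.69e-07). CYP71A12 was higher by 2.13 ± 0.22 log2 (edgeR adjusted p = 1.07e-07) and CYP71A13 by 1.61 ± 0.32 log2 (edgeR adjusted p = 0.000308). GGP1 and CYP71B6 moved less, by 0.71 ± 0.04 log2 (edgeR adjusted p = 8.49e-12) and 0.54 ± 0.08 log2 (edgeR adjusted p = 7.82e-06). The median over the 5 was 1.61 log2, where the median over all tested genes was 0.00. Without the second jazD replicate the same 5 genes were called, with CYP71A13 at 0.93 log2, PAD3 at 1.98 log2 and CYP71A12 at 1.78 log2 (edgeR adjusted p = 0.00313, 1.27e-07 and 7.16e-08).

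Of the 5 genes, 4 fell in jazDcdk8-1, which lacks CDK8 as well, relative to jazD, and PAD3 and CYP71A13 fell most. In jazDcdk8-1 against jazD 35.8% of tested genes were called, 16.9% higher and 19% lower. PAD3 fell by 3.82 ± 0.34 on the log2 scale, 14.1-fold (edgeR adjusted p = 1.58e-08), and CYP71A13 fell by 3.43 ± 0.39, 10.8-fold (edgeR adjusted p = 5.39e-07). CYP71A12 fell by 1.40 ± 0.21 on the log2 scale (edgeR adjusted p = 1.46e-05), and GGP1 by 0.21 ± 0.04 (edgeR adjusted p = 0.00032). CYP71B6 was not called, with a log2 fold change of -0.19 ± 0.08 (edgeR adjusted p = 0.0565), although no jazDcdk8-1 library reached the lowest jazD library. Without jazD replicate 2 the log2 fold changes were -3.28 for PAD3, -2.76 for CYP71A13 and -1.05 for CYP71A12 (edgeR adjusted p = 6.33e-10, 1.04e-07 and 4.8e-05). Without jazDcdk8-1 replicate 3 they were -4.55 for PAD3, -4.01 for CYP71A13 and -1.49 for CYP71A12 (edgeR adjusted p = 4.49e-08, 2.25e-06 and 8.15e-05). The call for GGP1 did not hold with limma on log2(TPM + 1), where the log2 fold change was -0.06 (adjusted p = 0.28).

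**Figure D2:**
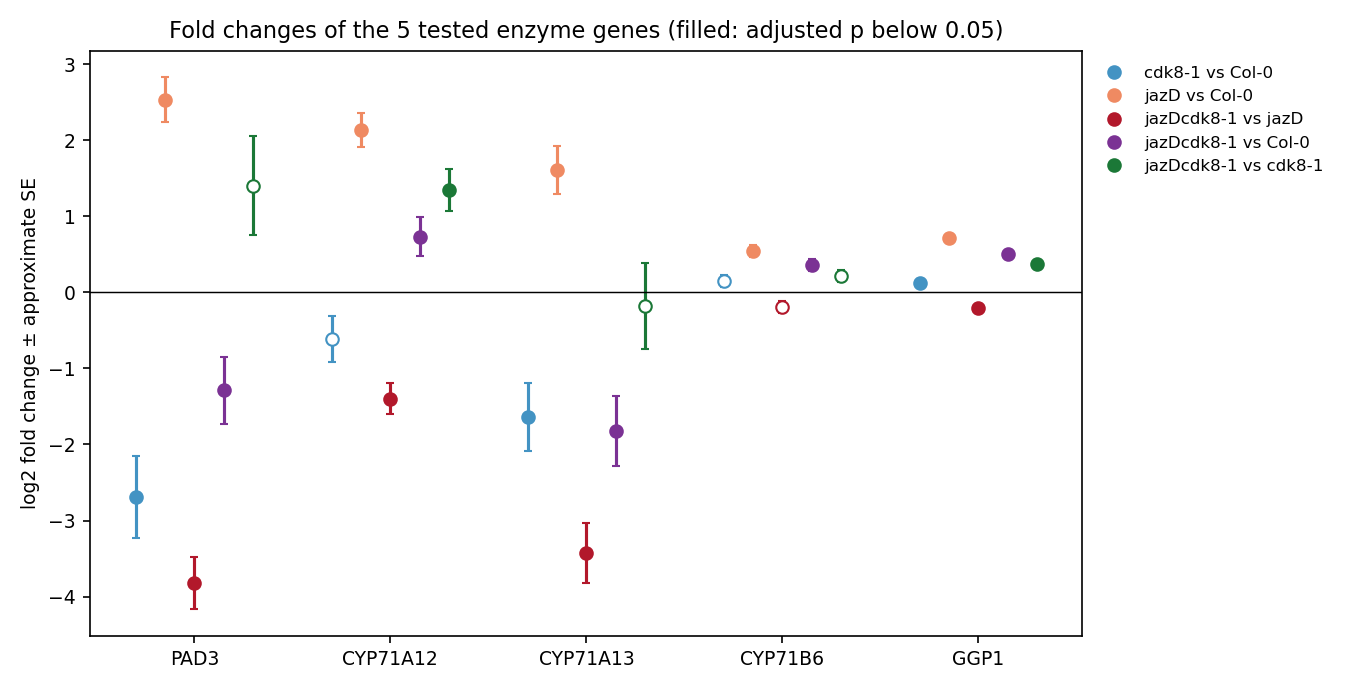
Log2 fold change ± approximate SE of the 5 tested genes in 5 comparisons, with filled points for adjusted p below 0.05 in edgeR and open points for the rest. All 5 were called higher in jazD against Col-0 and 4 lower in jazDcdk8-1 against jazD, where PAD3 and CYP71A13 were the lowest points.

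With the JAZ genes intact, PAD3 and CYP71A13 fell and GGP1 rose slightly in cdk8-1 relative to Col-0. In cdk8-1 against Col-0 25.5% of tested genes were called, 11.7% higher and 13.8% lower, and 3 of the 5 were called. PAD3 had a log2 fold change of -2.69 ± 0.54 (edgeR adjusted p = 0.000742) and CYP71A13 of -1.64 ± 0.45 (edgeR adjusted p = 0.00922). GGP1 was higher by 0.13 ± 0.04 log2 (edgeR adjusted p = 0.0274), a call that failed without Col-0 replicate 3, without each cdk8-1 replicate in turn, and with only these genotypes in the fit. CYP71A12 had a log2 fold change of -0.61 ± 0.30 (edgeR adjusted p = 0.147) and CYP71B6 of 0.14 ± 0.08 (edgeR adjusted p = 0.208), and neither was called. Without jazD replicate 2, which enters only the shared estimate of the spread, CYP71A12 was called at the same -0.61 (edgeR adjusted p = 0.0408).

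The combined mutant differed from Col-0 in opposite directions for different enzymes. In jazDcdk8-1 against Col-0 32.4% of tested genes were called, 16.3% higher and 16.1% lower, and all 5 genes were called. CYP71A12 was higher by 0.73 ± 0.25 log2 (edgeR adjusted p = 0.0309), CYP71B6 by 0.35 ± 0.08 (edgeR adjusted p = 0.00141) and GGP1 by 0.50 ± 0.04 (edgeR adjusted p = 5.85e-09). PAD3 had a log2 fold change of -1.29 ± 0.44 (edgeR adjusted p = 0.0278) and CYP71A13 of -1.82 ± 0.46 (edgeR adjusted p = 0.00398). The PAD3 call failed with DESeq2 (log2 fold change -1.32, adjusted p = 0.065), and without jazDcdk8-1 replicate 1 or 2 or Col-0 replicate 2 or 3. The CYP71A12 call failed without jazDcdk8-1 replicate 1 or 3 or Col-0 replicate 2 or 3, with a log2 fold change of 0.54 to 0.94 over the fits that left out 1 library. Without jazDcdk8-1 replicate 3 the PAD3 value was -2.02 (edgeR adjusted p = 0.00655) and the CYP71A13 value -2.40 (edgeR adjusted p = 0.00291).

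Between the genotypes without CDK8, 2 of the 5 genes were higher when the large set of JAZ repressors was also missing. In jazDcdk8-1 against cdk8-1 24% of tested genes were called, 12.7% higher and 11.2% lower. The genes called were CYP71A12 at 1.34 ± 0.27 log2 (edgeR adjusted p = 0.000908) and GGP1 at 0.37 ± 0.04 log2 (edgeR adjusted p = 7.1e-07). PAD3 had a log2 fold change of 1.40 ± 0.65 (edgeR adjusted p = 0.128), and without jazDcdk8-1 replicate 3, its highest library, it was 0.67 (edgeR adjusted p = 0.613). Without jazD replicate 2, which enters only the shared estimate of the spread, PAD3 was called at 1.39 (edgeR adjusted p = 0.0125). CYP71A13 had a log2 fold change of -0.18 ± 0.57 (edgeR adjusted p = 0.861).

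Whether loss of CDK8 acted differently in the 2 JAZ backgrounds was tested as an interaction, the fold change of jazDcdk8-1 over jazD minus that of cdk8-1 over Col-0. It was called for 16.5% of tested genes, 8.16% positive and 8.39% negative, and for 2 of the 5, both negative: GGP1 at -0.34 ± 0.06 log2 (edgeR adjusted p = 0.000309) and CYP71B6 at -0.33 ± 0.11 log2 (edgeR adjusted p = 0.0423). The CYP71B6 call did not hold under total-count scaling, DESeq2, limma on TPM or 8 of the 12 fits that left out 1 library, and without jazD replicate 2 the value was -0.24 (edgeR adjusted p = 0.111). For GGP1 this combined a log2 fold change of -0.21 in the jazD background with 0.13 in the wild-type background. PAD3 (-1.13 ± 0.79, edgeR adjusted p = 0.373), CYP71A12 (-0.79 ± 0.37, edgeR adjusted p = 0.164) and CYP71A13 (-1.79 ± 0.66, edgeR adjusted p = 0.0677) were not called. These 3 values without jazD replicate 2 were -0.59, -0.44 and -1.12 (edgeR adjusted p = 0.484, 0.336 and 0.0806). Without jazDcdk8-1 replicate 3 they were -1.86, -0.88 and -2.37 (edgeR adjusted p = 0.156, 0.158 and 0.0365), and CYP71A13 was then called. A difference in the CDK8 effect between backgrounds was not shown for these 3 genes in the main edgeR fit of all libraries, and their errors were large.

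The 2 copies did not keep a constant ratio. CYP71A12 made up 84.9%, 83.9% and 72.9% of the counts of the 2 copies in the jazDcdk8-1 libraries, and 59.9%, 43.8% and 48.1% in the jazD libraries. It made up 69.6%, 58.9% and 46.9% in the cdk8-1 libraries and 42.0%, 39.3% and 36.5% in the Col-0 libraries. The share was highest in jazDcdk8-1, where the mean was 80.6% ± 6.64 (SD, n = 3), and lowest in Col-0, at 39.3% ± 2.75. The jazD libraries averaged 50.6% ± 8.34 and the cdk8-1 libraries 58.5% ± 11.4. In each of 5 comparisons the exact two-sided permutation test gave p = 0.1, the smallest that 3 libraries against 3 allow, and the adjusted value over the 5 comparisons was also 0.1. These shares were compared after their values had been seen.

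**Figure D3:**
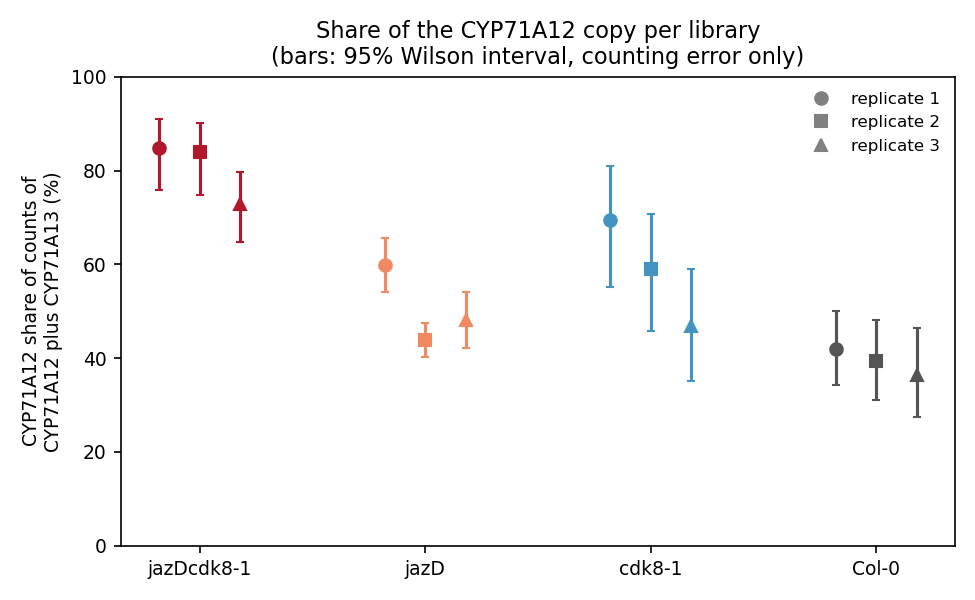
CYP71A12 counts as a percentage of CYP71A12 plus CYP71A13 counts in each library, with the 95% Wilson interval (counting error only). The jazDcdk8-1 libraries, at 72.9% or more, lie above all the others, which reach 69.6% at most.

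The enzymes that supply the aldoxime or act beside the 6 genes were read from lists written with results of these data known. In jazD against Col-0, 3 of the 4 aldoxime and glucosinolate genes were higher and 1 lower, 5 of 6 genes for other pathway steps were higher and none lower (1 lower with limma on log2(TPM + 1)), and all 3 camalexin transporters were higher. Over all tested genes, 21.8% were called higher and 20.9% lower in that comparison. CYP79B3 was higher in jazD by 1.99 ± 0.06 log2 and CYP83B1 by 1.08 ± 0.05 log2 (edgeR adjusted p = 1.93e-17 and 4.65e-13). FOX1, the oxidase of the carbonyl nitrile branch, was higher by 2.44 ± 0.32 log2, and GSTU4 by 2.17 ± 0.31 log2 (edgeR adjusted p = 1.98e-06 and 7.74e-06). The glutathione transferase GSTF6 was higher by 2.95 ± 0.13 log2 (edgeR adjusted p = 5.77e-14), but it is near-identical to GSTF7, so its value is uncertain. The transporter ABCG40 was higher by 2.51 ± 0.35 log2 and ABCG34 by 2.00 ± 0.09 log2 (edgeR adjusted p = 5.28e-06 and 4.5e-14). FOX1, GSTU4 and ABCG40 were more than 2-fold higher in jazD replicate 2 than in the mean of the other two, and without it they were higher by 1.97, 1.67 and 1.93 log2 (edgeR adjusted p = 7.53e-06, 4.19e-05 and 1.38e-05).

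In jazDcdk8-1 against jazD the same lists held lower genes: 3 of the 4 aldoxime genes, 6 of 6 other steps and 3 of 3 transporters were lower and none was higher. Of all tested genes, 16.9% were called higher and 19% lower there. CYP79B3 had a log2 fold change of -0.91 ± 0.05 and FOX1 of -2.14 ± 0.30 (edgeR adjusted p = 1.09e-11 and 9.36e-06). CYP79B2 was not called, at -0.12 ± 0.06 (edgeR adjusted p = 0.148), and it was higher than in Col-0 both in jazDcdk8-1, by 0.89 ± 0.07 log2 (edgeR adjusted p = 9.01e-10), and in jazD, by 1.01 ± 0.07 log2 (edgeR adjusted p = 5.17e-11). The transporter ABCG40 had a log2 fold change of -3.12 ± 0.37 (edgeR adjusted p = 9.82e-07), which was -2.55 without jazD replicate 2 and -3.94 without jazDcdk8-1 replicate 3 (edgeR adjusted p = 1.05e-06 and 6.9e-07). FOX1 was at -1.67 without jazD replicate 2 (edgeR adjusted p = 5.13e-05). The lists kept these directions under total-count scaling and with limma on log2(TPM + 1), where 2 of the 4 aldoxime genes were lower. In cdk8-1 against Col-0, where 13.8% of all tested genes were called lower, 4 of the 6 other steps were lower, with FOX1 at -1.59 ± 0.52 log2 (edgeR adjusted p = 0.0271).

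Among 14 tested regulators of camalexin synthesis, 10 were higher and 1 lower in jazD against Col-0, and 9 were lower and none higher in jazDcdk8-1 against jazD (with limma on log2(TPM + 1), 9 lower and 2 higher). The shares over all tested genes were 21.8% higher and 20.9% lower in jazD against Col-0. They were 16.9% higher and 19% lower in jazDcdk8-1 against jazD. WRKY33 had 17.4, 15.6 and 17.2 CPM in jazDcdk8-1, 49.4, 62.4 and 43.5 CPM in jazD, 10.5, 8.94 and 9.32 CPM in cdk8-1 and 18.6, 26.0 and 24.3 CPM in Col-0. Its order, jazD, Col-0, jazDcdk8-1 and cdk8-1, was that of PAD3, and no genotypes overlapped. This order was not particular to WRKY33, as the genotype means of MYB51, MKK9, WRKY40, ABCG40 and CYP71B22 had it too. A link between WRKY33 and PAD3 was not tested. WRKY33 had its changes called in all 3 comparisons that follow. It was higher in jazD than in Col-0 by 1.18 ± 0.11 log2 (edgeR adjusted p = 2.07e-08), with a log2 fold change of -1.63 ± 0.12 in jazDcdk8-1 against jazD (edgeR adjusted p = 3.53e-10) and of -1.26 ± 0.13 in cdk8-1 against Col-0 (edgeR adjusted p = 3.67e-07). The kinase MKK9 was higher in jazD by 1.91 ± 0.10 log2 and had -2.01 ± 0.10 log2 in jazDcdk8-1 against jazD (edgeR adjusted p = 1.05e-12 and 9.74e-13). MYB51, a regulator of indole glucosinolates, was higher in jazD by 1.70 ± 0.11 log2 and had -2.17 ± 0.12 log2 in jazDcdk8-1 against jazD (edgeR adjusted p = 8.7e-11 and 6.32e-12). WRKY40 had a log2 fold change of -2.72 ± 0.30 in jazDcdk8-1 against jazD (edgeR adjusted p = 2.96e-07), and of -2.28 without jazD replicate 2 (edgeR adjusted p = 3.44e-07). WRKY18 was higher in jazD by 1.2 ± 0.12 log2 (edgeR adjusted p = 5.72e-08). MPK6 had 0.07 ± 0.05 log2 in jazD against Col-0 and 0.01 ± 0.05 in jazDcdk8-1 against jazD, and was not called in either (edgeR adjusted p = 0.32 and 0.914).

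**Figure D4:**
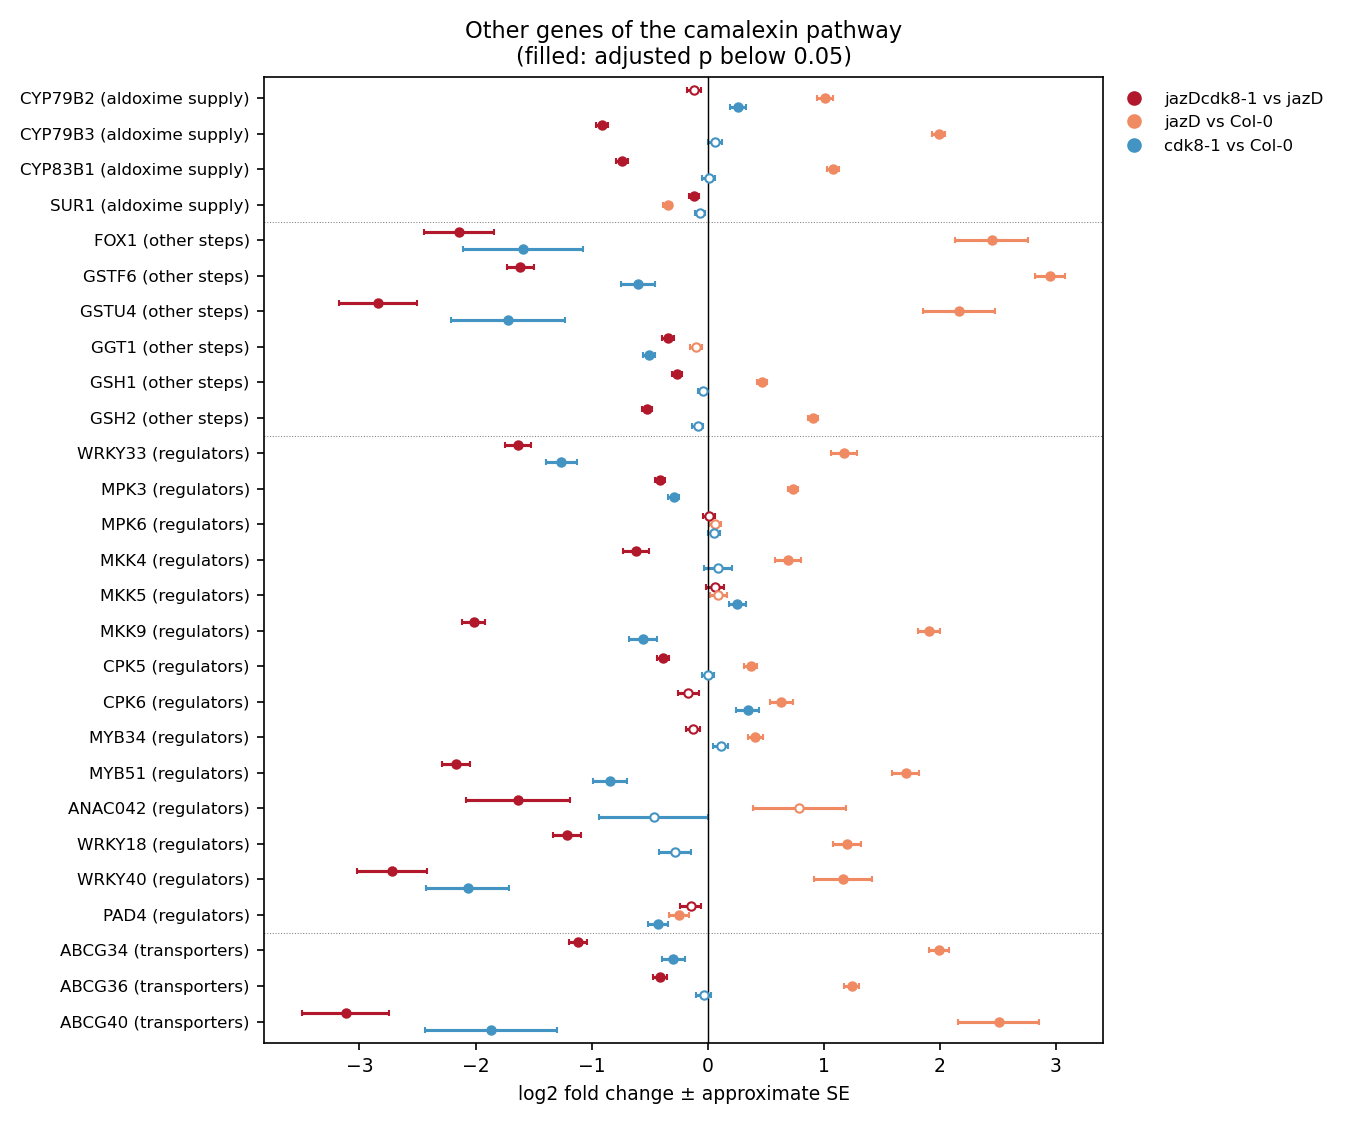
Log2 fold change ± approximate SE of the other pathway genes in 3 comparisons, with filled points for adjusted p below 0.05 in edgeR. Aldoxime supply stands for indole-3-acetaldoxime synthesis and the glucosinolate branch; most genes lie right of 0 in jazD against Col-0 and left of 0 in jazDcdk8-1 against jazD.

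Of 5 tested immune and senescence markers, 3 (PR1, PR5 and FRK1) were higher in jazD than in Col-0 and none was lower, and 4 (the same 3 and SAG13) were lower in jazDcdk8-1 than in jazD. Over all tested genes, 21.8% were called higher in the first of these comparisons and 19% lower in the second. PR2 was called in neither, at -0.58 log2 in jazD against Col-0 (edgeR adjusted p = 0.153) and -0.52 log2 in jazDcdk8-1 against jazD (edgeR adjusted p = 0.259). PR2 was lower in jazD than in Col-0 when jazD replicate 2 was left out, at -1.03 log2 (edgeR adjusted p = 0.0173). That fit kept Col-0 replicate 1, in which PR2 was at 2.13 times the mean of the other Col-0 libraries. This call therefore depends on which libraries are kept. The summed level of 6 such genes (PR1, PR2, PR5, FRK1, SAG12 and SAG13) was 38.7 to 87.7 CPM in jazDcdk8-1, 196 to 365 CPM in jazD, 55.8 to 87.5 CPM in cdk8-1 and 74.9 to 166 CPM in Col-0. PR1 had 2.06, 1.43 and 9.17 CPM in jazDcdk8-1, 47.5, 106 and 45.5 CPM in jazD, 3.04, 7.03 and 4.66 CPM in cdk8-1 and 32.5, 16.6 and 12.4 CPM in Col-0. FRK1 was higher in jazD than in Col-0 by 3.62 ± 0.38 log2 and had -2.27 ± 0.32 log2 in jazDcdk8-1 against jazD (edgeR adjusted p = 1.24e-07 and 1.06e-05). Without jazD replicate 2 these were 3.06 and -1.72 log2 (edgeR adjusted p = 6.2e-08 and 3.33e-05), and for PR1 1.19 and -3.43 log2, against 1.71 and -3.94 log2 with it (edgeR adjusted p = 0.00497 and 4.21e-07 without it). Without jazDcdk8-1 replicate 3 PR1 was at -5.27 and FRK1 at -2.88 log2 in jazDcdk8-1 against jazD (edgeR adjusted p = 1.24e-07 and 3.58e-06). In cdk8-1 against Col-0, 3 of the 5 markers (PR1, PR2 and SAG13) were lower and none was higher. Of all tested genes, 13.8% were called lower there. In jazDcdk8-1 against Col-0 the same 3 were lower and FRK1 was higher, by 1.35 log2 (edgeR adjusted p = 0.034). Of all tested genes, 16.1% were called lower and 16.3% higher there. The part of these markers in the PAD3 and CYP71A13 results was not tested. The related P450 gene CYP71B22 was higher in jazD by 2.79 ± 0.11 log2 and had -3.15 ± 0.11 log2 in jazDcdk8-1 against jazD (edgeR adjusted p = 9.85e-15 and 5.17e-15). For CYP71B7 these were 1.25 ± 0.04 and -1.18 ± 0.04 log2 (edgeR adjusted p = 8.96e-16 and 5.6e-15). For CYP71B23 they were 0.95 ± 0.20 and -1.65 ± 0.21 log2 (edgeR adjusted p = 0.000466 and 2.44e-06). Of 4 tested close paralogues, 4 were higher in jazD than in Col-0 and 3 were lower in jazDcdk8-1 than in jazD. GGP3 was not called in the latter, at -0.03 log2 (edgeR adjusted p = 0.702).

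The genes with the most similar pattern over the 12 libraries were found by the root mean square difference of log2 CPM after each gene's own mean was removed, among 17570 genes. PAD3 was closest to ABCG40 at 0.467, CYP81F2 at 0.643 and the monodehydroascorbate reductase gene AT3G09940 at 0.660. CYP71A13 ranked 12 for PAD3, at 0.762, and PAD3 ranked 70 for CYP71A13, whose nearest genes were BGLU11 at 0.406, AT1G13470 at 0.428 and AT3G63380 at 0.441. CYP71A12 was closest to IOS1 at 0.219, PMT6 at 0.229 and CYP72A8 at 0.262. Its nearest enzyme among the 6 was GGP1, at 0.786, and the 2 copies lay 1.06 apart. CYP71B6 was closest to ALPHA DOX2 at 0.0566, SYP43 at 0.0616 and LACS6 at 0.0686, and GGP1 to AT5G14120 at 0.0490, HAOX1 at 0.0534 and CYP706A4 at 0.0614. CYP71B6 and GGP1 lay 0.120 apart, and each ranked 173 for the other. A gene that varies little has small distances of this kind to many genes. These distances describe likeness over the same libraries and do not test it.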

How the data were processed

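RNA from 12 rosette pools was sequenced as above. The file headers name RSEM 1.2.25 with its defaults as the source of the deposited expected counts, and the deposited TPM values came from that program too. The submitters' processing notes name TAIR10; the aligner, annotation release and strand setting are not given in the sources used here. After rounding, expected counts entered edgeR 4.0.16 in R 4.3.3 (quasi-likelihood, TMM scaling with factors of 0.954 to 1.056, filterByExpr leaving 19059 genes, 1 model of 12 libraries, Benjamini-Hochberg adjustment over all genes tested). SE is approximate, being the size of the log2 fold change over the root of its F value. CPM are on TMM-scaled totals, and means are given with the SD over 3 pools of plants. The common dispersion was 0.002566. The p-values set each difference against the spread between these pools, estimated gene by gene over all 4 genotypes. Named genes were the 6 genes, CDK8, JAZ genes, WRKY33, FOX1, and up to 3 called genes of each list, those of greatest change with a mean of 1 CPM or more, for jazD against Col-0 and jazDcdk8-1 against jazD, plus the 3 nearest genes by pattern. Not every list gene that met this rule is given above. The genes, lists and rules were chosen with earlier results of these data known. Other list genes named beside them were chosen after their values were seen, as was the refit of listed genes without jazD replicate 2 or jazDcdk8-1 replicate 3. Copy shares used exact permutation tests, and Wilson intervals cover counting error only. Sequences and positions come from RefSeq TAIR10.1, read with Biopython 1.88. Alternatives were DESeq2 1.42.0, limma 3.58.1 on log2(TPM + 1) and log2(TPM + 0.1), RLE and total-count scaling, other filters, fits of only the groups compared, a replicate block, summed copies and each library left out. The edgeR step was tested on simulated data in which every gene had the common dispersion. That simulation does not cover genes that vary between pools as widely as PAD3 and CYP71A13.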

Additional observations from a re-analysis of the deposited data

Results flagged for a closer look

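The effect of CDK8 loss on GGP1 differed between the JAZ backgrounds, being 0.34 lower on the log2 scale in the jazD background than in the wild-type background (-0.34; edgeR interaction, adjusted p = 0.000309), and it was called under every alternative tried. The same difference for CYP71B6 was -0.33 (edgeR interaction, adjusted p = 0.0423), and its call failed under total-count scaling, DESeq2, limma on TPM and 8 of the 12 fits that left out 1 library.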

How the results depend on the processing

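Of the alternatives other than leaving out a library, 274 values of single genes kept their direction and side of the threshold, 10 lost a call, 9 gained one and 2 reversed; with 1 library left out these numbers were 324, 20, 14 and 2. The number of the 6 genes called (2 main) in jazDcdk8-1 against cdk8-1 was 4 with no low-count filter, 4 with only the groups compared in the fit and 1 with CYP71A12 and CYP71A13 summed. In jazDcdk8-1 against Col-0 (5 main) it was 3 with the copies summed. For the interaction (2 main) it was 1 with total-count scaling, 1 with limma on log2(TPM + 0.1) and 1 with DESeq2. With 1 library left out the counts ran from 2 to 4 for cdk8-1 against Col-0, 5 to 5 for jazD against Col-0, 4 to 5 for jazDcdk8-1 against jazD, 3 to 5 for jazDcdk8-1 against Col-0, 2 to 4 for jazDcdk8-1 against cdk8-1 and 1 to 3 for the interaction. Summing the copies reversed CYP71A12 in jazDcdk8-1 against Col-0 (-0.27) and CYP71A13 in jazDcdk8-1 against cdk8-1 (0.87), since the sum then stands for both genes. The CYP71A13 change in jazDcdk8-1 against cdk8-1 ranged from -0.76 without jazDcdk8-1 replicate 3 to 0.14 without cdk8-1 replicate 3, and was 0.06 without jazDcdk8-1 replicate 2; the cause was not tested. Replicate numbers did not pair the samples (18 pairs of equal number, correlations of -0.0639 to 0.0581), and with a replicate block the counts were 3, 5, 4, 5, 2 and 2 for cdk8-1 against Col-0, jazD against Col-0, jazDcdk8-1 against jazD, jazDcdk8-1 against Col-0, jazDcdk8-1 against cdk8-1 and the interaction. Scaling moved the split of all calls: in cdk8-1 against Col-0 45.9% of calls were higher with TMM and 66.8% with total counts, in jazDcdk8-1 against jazD 47.1% and 63.5%, and in jazDcdk8-1 against cdk8-1 53.2% and 41.7%; the median gene moved by at most 0.073 log2. The low counts of PAD3 and CYP71A13 in cdk8-1 and jazDcdk8-1, and of CYP71A12 in cdk8-1 and Col-0, limit their fold changes.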
